A study of Arabidopsis thaliana with 5 samples.

Results

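The DNA damage signalling and repair genes described here are 42 Arabidopsis loci given as a list, which covers damage signalling, homologous recombination, end joining, mismatch repair, excision repair and light-driven repair. A probe of the array was matched to a locus through its RefSeq transcript accession, and 41 of the 42 loci had a probe that was above background, out of 26657 genes and unnamed transcripts tested. ATM had no matched probe and was not analysed here. The RNA came from 12-day-old whole seedlings, on 3 arrays of the Atino80-5 mutant and 2 arrays of wild type, all grown on MS medium with long days. The labels give neither the nature of the Atino80-5 lesion nor the ecotype. They also leave unsaid whether each array had its own batch of seedlings, and the p-values therefore reflect the spread over arrays alone, possibly a technical one.

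Plant cells meet DNA breaks and blocked replication forks with the kinases ATM and ATR, which act on the transcription factor SOG1, and SOG1 turns on repair genes and inhibitors of the cell cycle. Breaks are then repaired either by homologous recombination, which copies an intact sister or homologue, or by end joining, which ligates the ends directly. Mispaired and damaged bases are handled by mismatch and excision repair, and ultraviolet photoproducts are also reversed by photolyases. INO80, after which the mutant is named, is the ATPase subunit of a chromatin remodeller with known links to recombination and to repair of breaks in yeast, mammals and plants.

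All levels below are scaled signals, the processed signal of an array brought to a common 75th percentile of 4503 intensity units. Before scaling, that percentile lay between 4478 and 4805 on the Atino80-5 arrays and between 4494 and 4503 on the wild type arrays, and 77.3% to 81.6% of 43603 probes were well above background on an array. INO80 itself had 62.5, 53.4 and 58.9 units in Atino80-5 and 9438 and 9308 units in wild type at its brighter probe A_84_P20358, while its probe A_84_P835513 had 507, 469.6 and 459 units in Atino80-5 and 132 and 124 units in wild type. Their log2 changes were -7.33 ± 0.073 and 1.90 ± 0.058 (SE, adjusted p over probes = 2.0e-05 and 5.5e-05), and where either probe lies relative to the lesion is not known here. Slide 2 carried Atino80-5 array 3 only, and slide 1 the other arrays of both genotypes. Green leaf genes such as RBCS1A and root genes such as EXPA7 were above background on all arrays, and the shoot stem cell gene WUS was below background.

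Most of the repair genes were slightly more abundant in Atino80-5. Of the 41 tested, 26 were higher, 4 were lower and 11 were not called, at an adjusted p under 0.05 from limma over all genes. Among the members 63.4% were called higher and 9.76% lower, and among all genes tested 30.7% were called higher and 26.4% lower, or 57.1% in either direction. The median log2 change, always Atino80-5 minus wild type, was 0.22 over the members and 0.01 over all genes. The median size of the log2 change, whatever its direction, was 0.27 over the members and 0.20 over all genes. A change of at least 0.5 on the log2 scale was called for 7 members, 6 of them higher and 1 lower. Among all genes tested 19.4% passed that size, 12.3% higher and 7.06% lower. Only 1 member, GMI1, changed at least 2-fold, beside 7.23% of all genes tested. Array values did not overlap between genotypes for 28 members that were higher and 7 that were lower in Atino80-5, beside 38.8% and 35.8% of all genes tested, or 74.6% in either direction. Lack of overlap, mentioned below for single genes, was thus common. Within slide 1, that is without Atino80-5 array 3, the calls were 21 higher and 2 lower, beside 28.3% of all genes called higher in that fit. Without wild type array 2, which leaves 1 wild type array, the median log2 change was 0.25 over the members and 0.01 over all genes. Of 20 processing alternatives, 10 leave out 1 array each (every array once with probes chosen anew and once with probes held). Of the 30 called members, 20 were past the threshold in the same direction under all 20. These alternatives overlap and are not independent checks. Since slide 2 carried Atino80-5 array 3 alone, blocking by slide repeats the fit that omits this array with probes held. Blocking by replicate number returned those log2 changes again. The authors' table was close to quantile normalization (7759 and 7757 genes called higher). Counts of alternatives, here and below, therefore include repeats and near repeats. Of the calls, 86.7% among members and 53.8% among all genes were higher, and with scaling to the median these shares were 76.9% (20 higher and 6 lower members) and 42.9%. In bulk RNA a different number of cells of a type and a different amount of RNA per cell cannot be told apart.

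**Figure D1:**
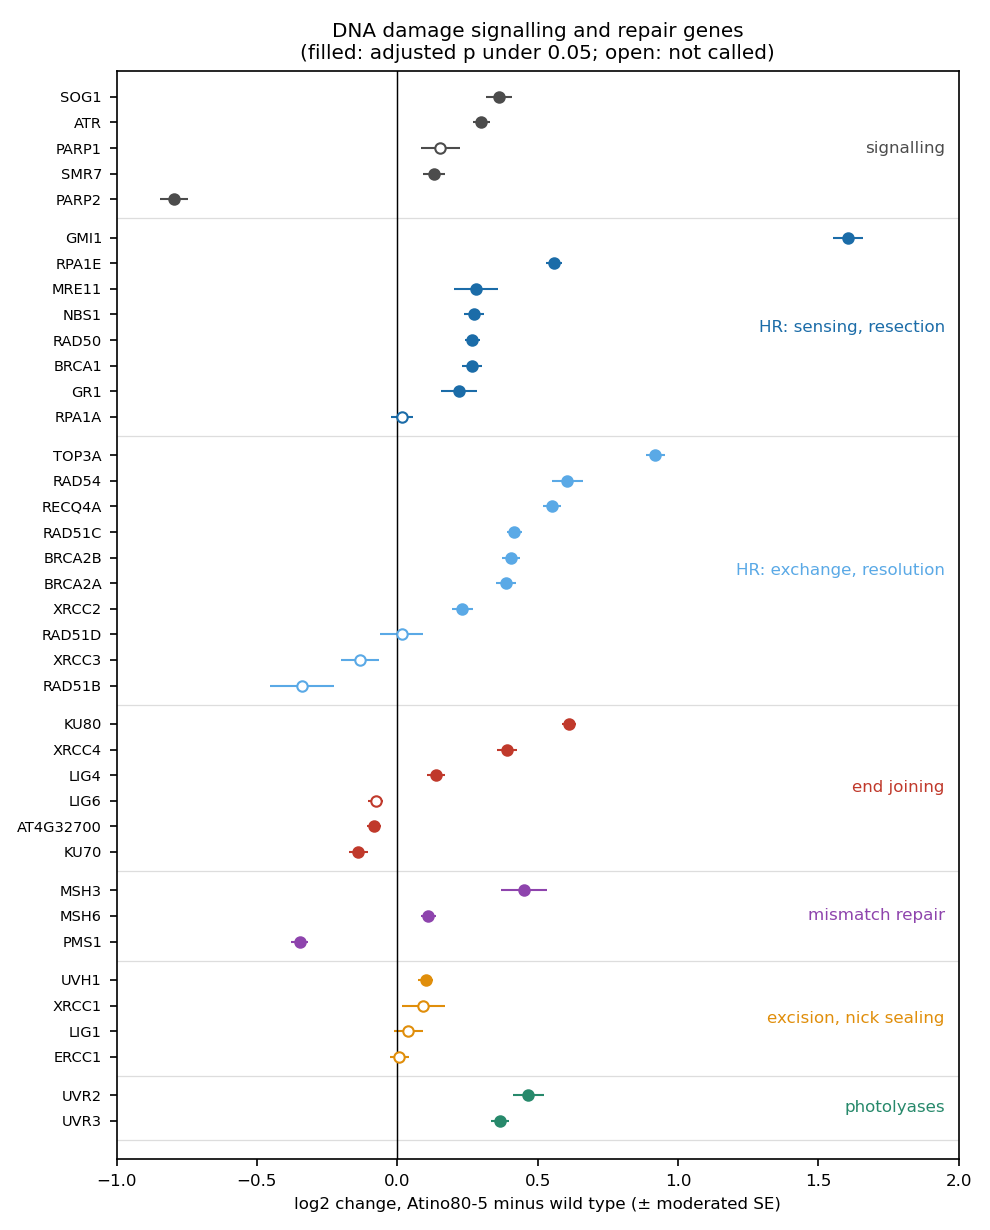
Log2 change, Atino80-5 minus wild type, of 38 members, grouped by role and ordered by change, with the moderated standard error as bars (3 and 2 arrays). Filled points are called and open points are not; GMI1 lies farthest right at 1.61 and PARP2 farthest left at -0.80.

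**Figure D2:**
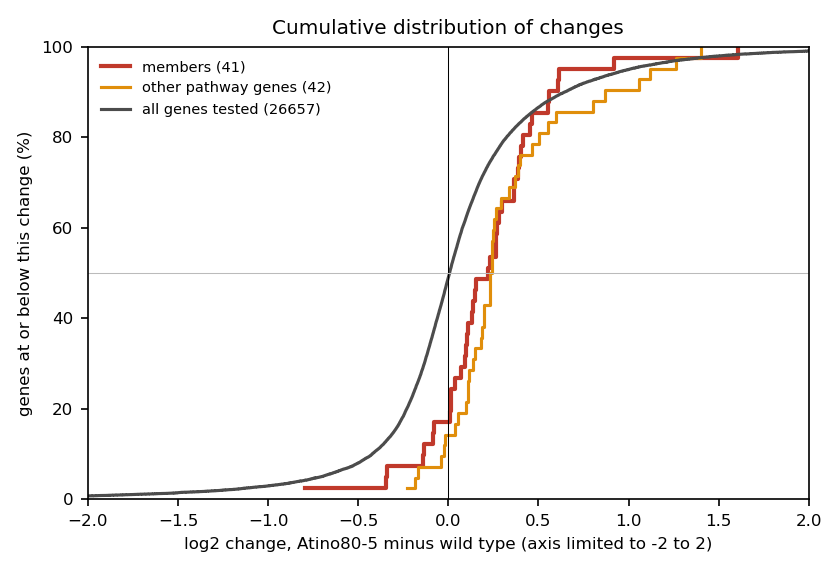
Cumulative share of genes (y axis, percent) at or below each log2 change (x axis) for the 41 members, 42 other genes of the same pathways and all 26657 genes tested. The member curve crosses the middle of the y axis at 0.22 and the curve of all genes at 0.01.

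Of 5 signalling genes tested, 3 were higher, PARP2 was lower and PARP1 was not called, beside 30.7% higher and 26.4% lower among all genes tested. SOG1, the transcription factor that serves as the main switch of the plant damage response, had 3435, 3501 and 3756 units in Atino80-5 and 2752 and 2788 units in wild type. All Atino80-5 arrays lay above both wild type arrays, and SOG1 rose by 0.36 ± 0.048 on the log2 scale (SE, adjusted p = 0.0033, limma). ATR, the kinase that answers stalled replication forks, had 970.0, 1003 and 970.1 units in Atino80-5 and 787 and 807 units in wild type, again without overlap, a rise of 0.30 ± 0.031 (adjusted p = 0.0016). Its partner SUV2, which binds ATR, rose by 0.23 ± 0.037 (adjusted p = 0.0062). SMR7, a cyclin-dependent kinase inhibitor that SOG1 induces after damage, changed very little. Its arrays read 463, 493 and 476 units in Atino80-5 and 428 and 443 units in wild type, a rise of 0.13 ± 0.040 (adjusted p = 0.045), and this call was lost under 14 of 20 alternatives. Among these were leaving out wild type array 1 or 2 or Atino80-5 array 2 or 3 (log2 change 0.11 to 0.16, adjusted p = 0.093 to 0.20).

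The poly(ADP-ribose) polymerase genes, whose products mark strand breaks and recruit repair proteins, gave different calls. PARP2 (AT4G02390) had 865, 909 and 954 units in Atino80-5 and 1589 and 1563 units in wild type. Every Atino80-5 array was far below both wild type arrays, and the gene was 1.74-fold lower (log2 change -0.80 ± 0.050, adjusted p = 0.00034), the largest fall among the members. PARP1 (AT2G31320) had 1722, 1949.7 and 1962 units in Atino80-5 and 1684 and 1685 units in wild type. Its log2 change of 0.15 ± 0.068 was not called (adjusted p = 0.12), and Atino80-5 array 1 stood close to the wild type arrays while arrays 2 and 3 were higher. Without Atino80-5 array 1 the change was 0.22 and was called (adjusted p = 0.0071). Both genes are known to be induced by ionising radiation.

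Of 19 genes of homologous recombination tested, 14 were higher (73.7%), 0 were lower and 5 were not called in limma, beside 30.7% higher and 26.4% lower among all genes tested. Their median log2 change was 0.27, beside 0.22 over all members and 0.01 over all genes. At an unadjusted p under 0.05, 15 were higher and 1, RAD51B, was lower. RAD51B was called lower under 11 of the 20 alternatives.

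Among the genes that sense and resect breaks, GMI1 stood out by size. GMI1 encodes a protein with a hinge domain related to that of structural maintenance of chromosomes (SMC) proteins, is strongly induced by radiation and is needed for somatic recombination. It had 1070.0, 1144 and 1176 units in Atino80-5 and 363 and 379 units in wild type, so that the lowest mutant array was well above the highest wild type array. The gene was 3.04-fold higher in Atino80-5 (log2 change 1.61 ± 0.052, adjusted p = 6.8e-05), with log2 changes between 1.45 and 1.64 under the alternatives.

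The MRE11-RAD50-NBS1 complex, which binds broken ends and activates ATM, showed nearly the same log2 change at all its subunits. RAD50 had 3310.3, 3322 and 3379.9 units in Atino80-5 and 2759 and 2788 units in wild type, a rise of 0.27 ± 0.026 (adjusted p = 0.0013). NBS1 had 648, 614 and 642 units in Atino80-5 and 519 and 532 units in wild type, a rise of 0.27 ± 0.036 (adjusted p = 0.0034). MRE11 had 1169.7, 1340.1 and 1359 units in Atino80-5 and 1079 and 1038 units in wild type, a rise of 0.28 ± 0.078 (adjusted p = 0.034). None of these overlapped between genotypes, as was so for 74.6% of all genes tested. The MRE11 call was lost under 12 of 20 alternatives, and without wild type array 1 or 2 or Atino80-5 array 2 or 3 its change was 0.24 to 0.31 (adjusted p = 0.077 to 0.14), while RAD50 and NBS1 kept theirs under all 20.

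The resection factor GR1, the plant relative of yeast Sae2 and human CtIP, rose by 0.22 ± 0.065 (adjusted p = 0.041), a call lost under 14 alternatives. Without wild type array 1 or 2 or Atino80-5 array 1 or 3 its change was 0.17 to 0.27 (adjusted p = 0.068 to 0.18). BRCA1, which directs breaks toward recombination and is damage-inducible, had 1473, 1444 and 1387 units in Atino80-5 and 1197 and 1191 units in wild type, without overlap. It rose by 0.26 ± 0.036 (adjusted p = 0.0036).

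The genes for the large subunit of replication protein A, which coats single-stranded DNA, gave different calls. RPA1E (AT4G19130) had 585, 579 and 593 units in Atino80-5 and 394 and 402 units in wild type, and it was 1.47-fold higher (log2 change 0.56 ± 0.027, adjusted p = 0.00018). RPA1A, a paralogue with meiotic functions, had 2966, 3176 and 3148 units in Atino80-5 and 3067 and 3055 units in wild type. Those groups overlapped, and the change of 0.02 ± 0.040 was not called (adjusted p = 0.76). Outside the list, RPA1C rose by 0.23 ± 0.049 and RPA1B by 0.15 ± 0.042, and RPA1D had a change of -0.02 ± 0.036 that was not called. The difference between paralogues was not tested, and related copies such as these, RECQ4A and RECQ4B, or SMC6A and SMC6B could share probe signal.

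Of 5 genes whose products assist strand exchange (RAD51B, RAD51C, RAD51D, XRCC2 and XRCC3), 2 were called, beside 57.1% of all genes tested. RAD51C had 1495, 1496 and 1485 units in Atino80-5 and 1133 and 1102 units in wild type, a rise of 0.42 ± 0.027 (adjusted p = 0.00038), and XRCC2 rose by 0.23 ± 0.036 (adjusted p = 0.0055). RAD51D had a change of 0.02 ± 0.076 and XRCC3, the partner of RAD51C, one of -0.13 ± 0.068, neither of them called. RAD51B was dim, with 60.9, 78.1 and 72.5 units in Atino80-5 and 88.6 and 89.1 units in wild type, a change of -0.34 ± 0.11 (adjusted p = 0.058) that was called without Atino80-5 array 1 (-0.24, adjusted p = 0.023) or array 2 (-0.42, adjusted p = 0.035). A second RAD51B probe, A_84_P757473, had 52.6, 61.3 and 55.6 units in Atino80-5 and 75.9 and 76.0 units in wild type and was called lower (log2 change -0.43 ± 0.071, adjusted p over probes = 0.0068).

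The BRCA2 genes, whose products load the recombinase onto single-stranded DNA, rose by like amounts at their brighter probes. BRCA2A had 2966, 3019 and 2985 units in Atino80-5 and 2221 and 2354 units in wild type (log2 change 0.39 ± 0.036, adjusted p = 0.0011), and BRCA2B had 1318, 1361 and 1307 units in Atino80-5 and 1019 and 989 units in wild type (0.40 ± 0.033, adjusted p = 0.00073). These genes are near-identical copies, probe sequences were not used here, and each probe could share signal with the other gene. Each also had a dim second probe that was not called, with changes of -0.11 ± 0.085 at BRCA2A and 0.19 ± 0.090 at BRCA2B. With the mean of a gene's probes, the BRCA2A change became 0.14 and its call was lost (adjusted p = 0.090), while BRCA2B kept its call at 0.30.

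The largest rises in strand exchange and resolution were those of TOP3A, RAD54 and RECQ4A. TOP3A, a topoisomerase that with the helicase RECQ4A and the scaffold RMI1 takes apart recombination intermediates, had 4438, 4294 and 4484 units in Atino80-5 and 2288 and 2371 units in wild type. It was 1.89-fold higher (log2 change 0.92 ± 0.035, adjusted p = 9.5e-05), and its arrays of the genotypes were far apart. RECQ4A had 4397, 4589.9 and 4561 units in Atino80-5 and 3074 and 3089 units in wild type, a rise of 0.55 ± 0.031 (adjusted p = 0.00027). RMI1, from the list of other pathway genes, rose as well, by 0.37 ± 0.095 (adjusted p = 0.028, limma). All 3 genes of this complex were thus called higher, beside 30.7% of all genes tested. RMI1 was dim, with 231, 205 and 253 units in Atino80-5 and 179 and 175 units in wild type. The alternatives were run for members only, so how far the RMI1 call depends on the processing is not known. RAD54, a DNA-dependent ATPase that assists strand exchange and belongs to the Snf2 family as INO80 does, had 623, 647 and 679 units in Atino80-5 and 411 and 442 units in wild type, without overlap. It rose by 0.61 ± 0.055, or 1.52-fold (adjusted p = 0.0010).

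**Figure D3:**
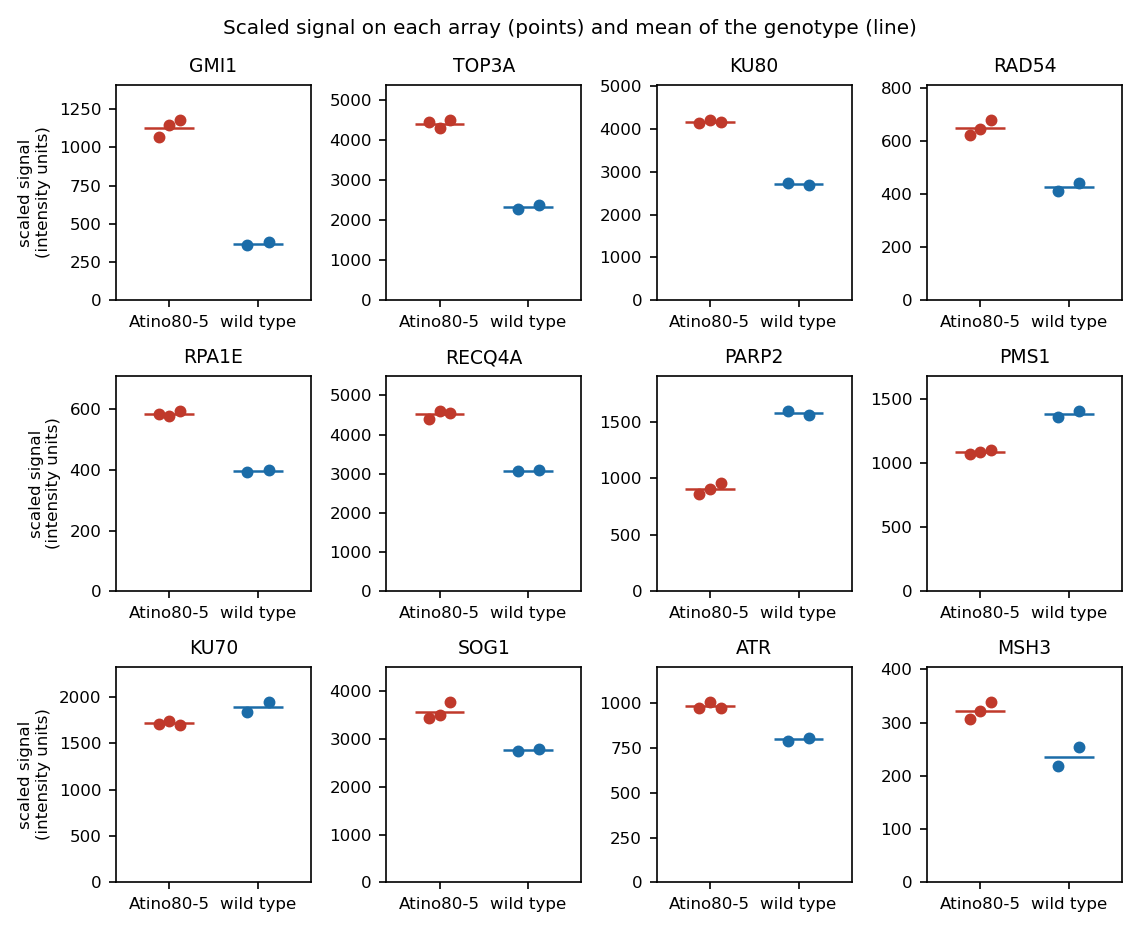
Scaled signal (y axes, intensity units, starting at 0) of 12 members on each array, with 3 Atino80-5 arrays left and 2 wild type arrays right and the mean of each genotype as a line. Each panel has its own scale; as a fold, GMI1 (3.04-fold) and TOP3A (1.89-fold) lie farthest above wild type and PARP2 (1.74-fold lower) farthest below, and KU70 and KU80 go opposite ways.

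Of 6 end joining genes tested, 3 were higher, 2 were lower and 1 was not called, with a median log2 change of 0.03. Calls in both directions were also common among all genes tested, with 30.7% higher and 26.4% lower. KU80, which with KU70 forms the ring that caps broken ends, had 4131, 4192 and 4153 units in Atino80-5 and 2743 and 2699 units in wild type, and was 1.53-fold higher (log2 change 0.61 ± 0.026, adjusted p = 0.00012). KU70 had 1712, 1741 and 1697 units in Atino80-5 and 1841 and 1939.7 units in wild type, and fell by 0.14 ± 0.035 (adjusted p = 0.026). The partners thus went opposite ways, without overlap of the arrays for either, as was so for 74.6% of all genes tested. A second KU70 probe fell too, by 0.19 ± 0.051 (adjusted p over probes = 0.033), but the KU70 call was lost under 12 of 20 alternatives. Without wild type array 2 or any 1 of the Atino80-5 arrays, its change was -0.15 to -0.10 (adjusted p = 0.054 to 0.12). KU80 kept its call under all 20.

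Both genes of the ligation step that follows were called higher, beside 30.7% of all genes tested. XRCC4, the scaffold of DNA ligase IV, had 4109, 4167 and 4348 units in Atino80-5 and 3227 and 3188 units in wild type, a rise of 0.39 ± 0.035 (adjusted p = 0.0010). LIG4, the ligase itself, had 3662, 3526 and 3540.4 units in Atino80-5 and 3218 and 3281 units in wild type, a rise of 0.14 ± 0.031 (adjusted p = 0.018) that was lost under 6 alternatives. Without wild type array 1 or 2 its change was 0.12 or 0.15 (adjusted p = 0.10 or 0.065). LIG6, a plant ligase with a role in seed longevity, had a change of -0.08 ± 0.027 that was not called (adjusted p = 0.068). The locus AT4G32700 was called lower, with 828, 819 and 831 units in Atino80-5 and 870.3 and 881 units in wild type, a change of -0.08 ± 0.025 (adjusted p = 0.043). That call was lost under 15 alternatives, and without any 1 array the change was -0.09 to -0.08 (adjusted p = 0.071 to 0.19).

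Mismatch repair genes were mostly higher by little. Of 5 tested, 3 were higher, 1 was lower and 1 was not called, with a median of 0.11. Among all genes tested 30.7% were called higher and 26.4% lower. MSH3, whose product recognises larger loops, was dim, with 307, 321 and 338 units in Atino80-5 and 218 and 254 units in wild type. It rose by 0.45 ± 0.082 (adjusted p = 0.0095), the largest rise of the group, and kept its call under all 20 alternatives. MSH6, whose product recognises single mispairs, had 1530.1, 1570.0 and 1546 units in Atino80-5 and 1445 and 1424 units in wild type. Its rise of 0.11 ± 0.027 (adjusted p = 0.023) was lost under 15 alternatives, and it was -0.04 with the mean of its probes, where a dim second probe enters. Without wild type array 1 or 2 or Atino80-5 array 2 or 3 it was 0.10 to 0.12 (adjusted p = 0.060 to 0.12).

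PMS1, whose MutL-type product acts after mismatch binding, was lower. It had 1070.3, 1087 and 1105 units in Atino80-5 and 1364 and 1404 units in wild type, and was 1.27-fold lower (log2 change -0.35 ± 0.030, adjusted p = 0.00091). No Atino80-5 array reached a wild type array, and the call held under all 20 alternatives.

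Of 4 genes of excision repair and nick sealing tested, 1 was higher, 0 were lower and 3 were not called in limma, with 1 higher and 0 lower at an unadjusted p under 0.05. The share called higher was 25%, beside 30.7% of all genes tested. UVH1 and ERCC1 form the nuclease that cuts beside bulky lesions. UVH1 had 2357, 2407 and 2393 units in Atino80-5 and 2244 and 2202 units in wild type, a rise of 0.10 ± 0.027 (adjusted p = 0.029). That call was lost under 15 alternatives, and without wild type array 1 or 2 or Atino80-5 array 2 or 3 the change was 0.09 to 0.12 (adjusted p = 0.077 to 0.15). ERCC1 had 5662, 5409 and 5421 units in Atino80-5 and 5418 and 5515 units in wild type, with overlap and a change of 0.01 ± 0.034 (adjusted p = 0.86). XRCC1, the scaffold of base excision repair, and LIG1, the replicative ligase that also seals repair nicks, had changes of 0.09 ± 0.075 and 0.04 ± 0.052 and overlapping arrays.

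Both photolyase genes were higher, beside 30.7% of all genes tested. UVR2, whose enzyme splits cyclobutane pyrimidine dimers with light, had 1084, 1210.5 and 1129 units in Atino80-5 and 813 and 837 units in wild type, a rise of 0.47 ± 0.056 (adjusted p = 0.0024). UVR3, whose enzyme reverses the (6-4) photoproduct, had 1521, 1497 and 1574 units in Atino80-5 and 1186 and 1188 units in wild type, a rise of 0.37 ± 0.033 (adjusted p = 0.00096). The arrays of the genotypes did not overlap for either gene, as was so for 74.6% of all genes tested. Both calls held under all 20 alternatives.

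The members known to be induced by DNA damage did not share 1 direction. Of 8, among them BRCA1, PARP1, PARP2, GMI1, GR1, SMR7 and RPA1E, 5 were higher, 1 was lower and 2 were not called. For this list and the next, the shares over all genes tested were 30.7% higher and 26.4% lower. The log2 changes below are first those of the members. Their log2 changes ran from -0.80 at PARP2 to 1.61 at GMI1, with a median of 0.19, next to 0.22 over all members. Other damage-inducible genes changed within a narrow range. Of 9 listed, 6 could be tested, and all 6 (XRI1, TSO2, CYCB1;1, WEE1, RAD17 and SYN2) were higher, with a median of 0.25 and a highest rise of 0.29 at XRI1.

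Beyond the members, 49 further genes of the same pathways were described, of which 42 could be tested. Of these, 32 were higher, 3 were lower and 7 were not called, with a median log2 change of 0.24, beside 30.7% of all genes tested called higher. Their largest rises were in genes of meiotic crossing over and in 2 genes of base and end repair. MSH4, which with MSH5 stabilises meiotic crossover intermediates, had 331, 330.2 and 323 units in Atino80-5 and 117 and 131 units in wild type, a 2.65-fold rise (log2 change 1.40 ± 0.056, adjusted p = 0.00011). MSH5 had 280.3, 288 and 292 units in Atino80-5 and 141 and 133 units in wild type, a 2.09-fold rise. MLH3, a MutL gene of meiosis, had 296, 303 and 324 units in Atino80-5 and 143 and 139.7 units in wild type, a 2.17-fold rise. All 3 rose at least 2-fold, whereas the mismatch repair members changed by at most 0.45 in size on the log2 scale.

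UNG, the glycosylase that removes uracil from DNA, had 1262, 1218 and 1195 units in Atino80-5 and 499 and 521 units in wild type, a 2.40-fold rise (log2 change 1.27 ± 0.039, adjusted p = 6.0e-05). TDP1, which frees DNA ends from trapped topoisomerase, rose by 0.87 ± 0.039 (adjusted p = 0.00014). SMC6A, of the SMC5/6 complex, rose by 0.80 ± 0.086 and its paralogue SMC6B by 0.39 ± 0.045, while their partner SMC5 had a change of 0.04 ± 0.038 that was not called. The genes that fell were DDB1A, CSA-1 and POLH, by 0.17 ± 0.025, 0.18 ± 0.025 and 0.23 ± 0.048. DDB1A and CSA-1 belong to ubiquitin ligases that recognise damage, and POLH is a translesion polymerase.

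**Figure D4:**
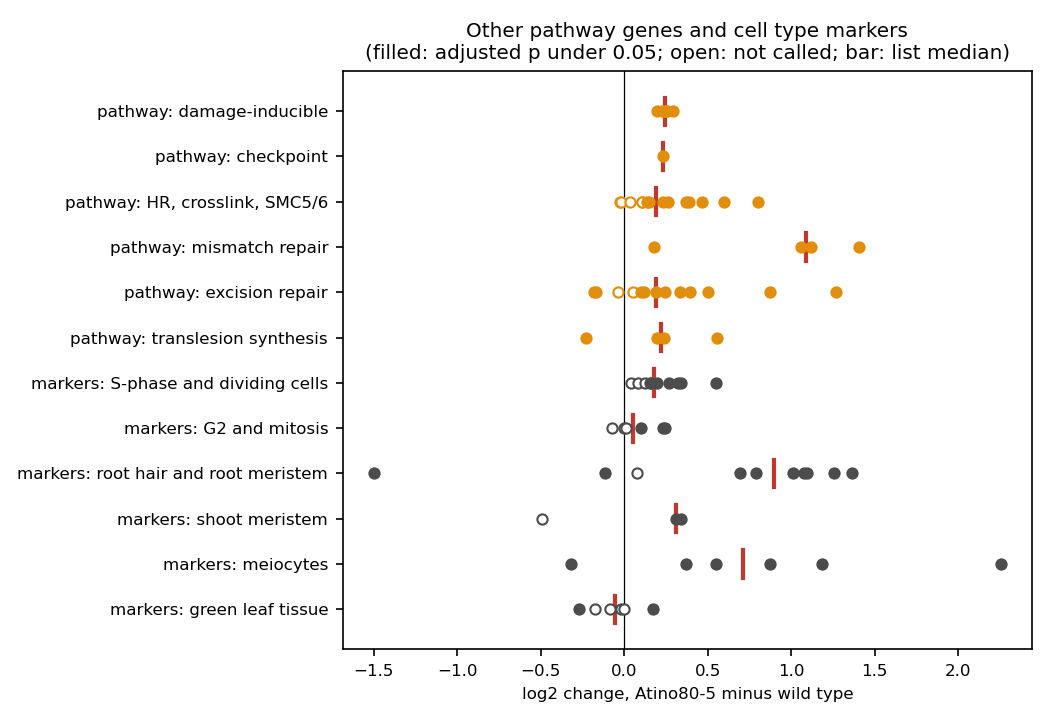
Log2 change, Atino80-5 minus wild type, of other genes of the pathways (upper rows) and of cell type markers (lower rows), with each point a gene, filled where called, and a bar at the median of the list. The mismatch repair row, with MSH4, MSH5 and MLH3, and the meiocyte and root rows have medians of 1.09, 0.71 and 0.90, and the green leaf row one of -0.05.

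Many repair genes are expressed most in dividing cells, so markers of cell types were set beside them. The calls in these lists stand beside 30.7% higher and 26.4% lower among all genes tested. Of 10 genes of S phase, 6 were higher, 0 were lower and 4 were not called (at an unadjusted p under 0.05, limma gave 7 and 0), with a median of 0.18. Their summed scaled signal was 36183 to 37052 units in Atino80-5 and 31536 to 32319 units in wild type, and the licensing gene CDC6 rose by 0.55 ± 0.035. Of 6 genes of G2 and mitosis, 3 were higher and 0 lower (3 and 0 at an unadjusted p under 0.05), with a median of 0.05. Their summed signal was 45518 to 46002 units in Atino80-5 and 43621 to 45835 units in wild type, with overlap.

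Of 6 meiocyte markers, 5 were higher and 1 lower, with a median of 0.71 and a summed signal of 8267 to 8500.4 units in Atino80-5 and 5392 to 5400.0 units in wild type. Most of that sum was DMC1, with 7076, 7240 and 7041 units in Atino80-5 and 4853 and 4877 units in wild type. SYN1, the meiotic cohesin, had 583, 568 and 559.7 units in Atino80-5 and 126 and 113 units in wild type, a 4.77-fold rise. SDS, a meiotic cyclin-like protein, rose by 1.18 ± 0.069, ZYP1A of the synaptonemal complex by 0.87 ± 0.064 and the meiotic recombinase DMC1 by 0.55 ± 0.027, while ASY1 of the chromosome axis fell by 0.32 ± 0.076. All 6 meiocyte markers were above background on every array of both genotypes, and DMC1 lay above the common 75th percentile of 4503 units on each. The RNA came from whole seedlings, and whether any of this signal came from meiocytes was not tested.

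Most root markers were higher. Of 10 root hair and root meristem genes, 7 were higher, 2 lower and 1 not called, with a median of 0.90 and a summed signal of 11082 to 11373 units in Atino80-5 and 10945 to 11052 units in wild type. Most of that sum was SCR, with 7111, 6968 and 6808 units in Atino80-5 and 7559 and 7539 units in wild type. SCR was called lower (log2 change -0.12 ± 0.030, adjusted p = 0.029, limma), so the sum says little about the root hair genes. EXPA18, EXPA7 and PRP3 of root hairs were 2.38-fold, 2.01-fold and 2.11-fold higher, and PLT1 and PLT2 of the root meristem rose by 1.36 ± 0.13 and 1.09 ± 0.026, PLT1 with 1 of 2 wild type arrays above background. WOX5, of the quiescent centre, was 2.82-fold lower. Of 4 shoot meristem genes, 2 (STM and KNAT1) were higher, CLV3 was not called and WUS was below background, with a summed signal over the 3 tested of 3094 to 3213 units in Atino80-5 and 2537 to 2543 units in wild type. Of 6 green leaf genes, 1 was higher, 1 lower and 4 not called, and their summed signal was 2466110 to 2618470 units in Atino80-5 and 2633400 to 2700070 units in wild type. Whether these differences in marker transcripts reflect numbers of cells, and their part in the changes of the repair genes, was not tested.

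**Figure D5:**
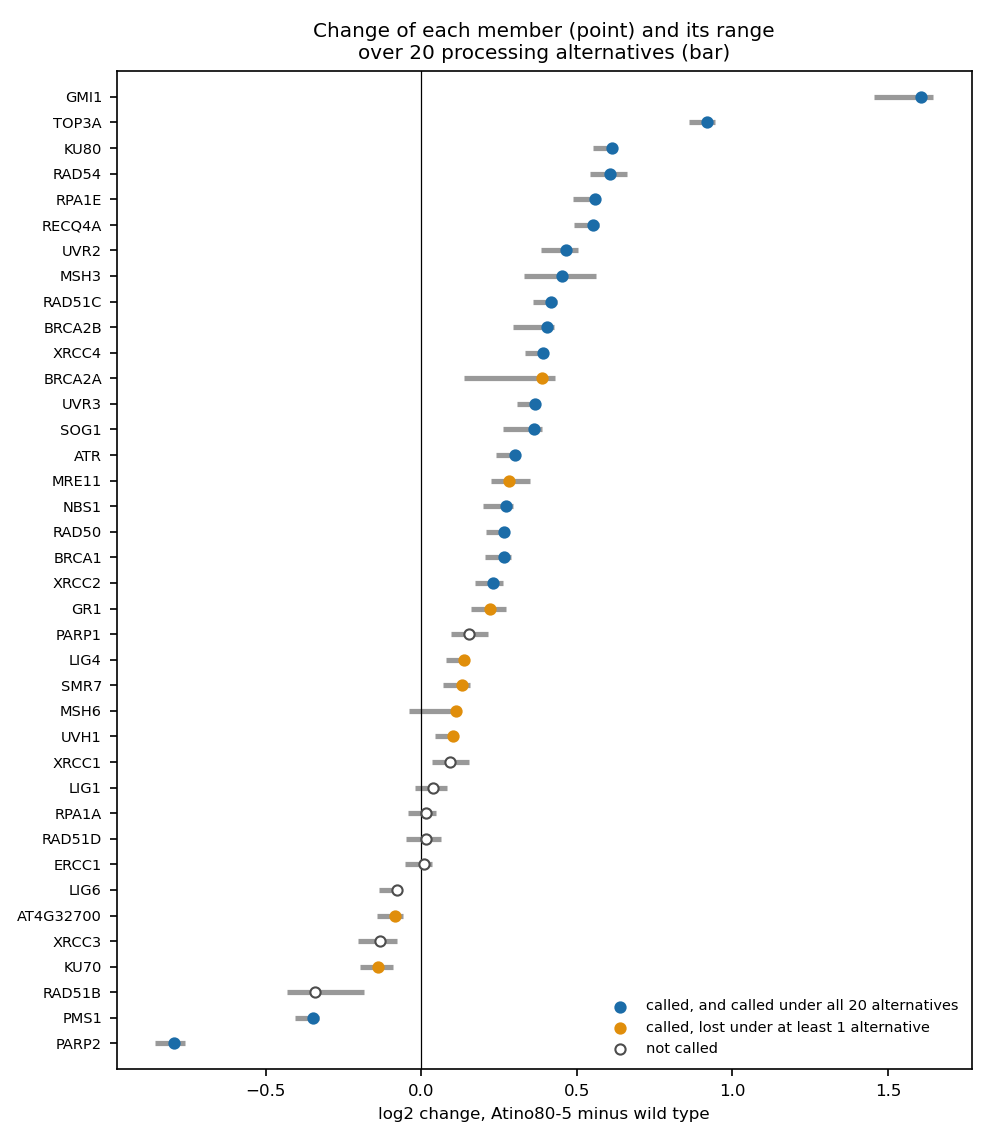
Log2 change of 38 members (points) and its lowest and highest value over 20 processing alternatives (grey bars). Blue points are 20 members called under every alternative, orange points are 9 whose call was lost at least once, and open points 9 not called; among called members the bar crosses 0 for MSH6 alone.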

How the data were processed

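Transcript levels of Atino80-5 (3 arrays) and wild type (2 arrays) seedlings were read from 1-colour Agilent files. The deposited intensity of each spot had been background-subtracted and detrended within its array by Agilent Feature Extraction 10.7.3.1 (protocol GE1_107_Sep09), per the file headers; the submitters' processing notes give version 9.1. The authors' deposited table holds log2 values, whose scale and normalization are not stated. Against the log2 processed signal of the same array, each column correlated at 0.9994 or more. All columns had a 75th percentile of 12.15, and their medians were 9.6216, 9.6213 and 9.6213 (Atino80-5), and 9.6208 and 9.6213 (wild type). It served as an alternative.

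Control spots (1417 per array) and 7 to 14 flagged spots per array were left out, and no probe spot was saturated. Log2 signals were centred on each array's 75th percentile, spots of a probe were averaged, and probes above background on at least 2 of 5 arrays were kept. A gene was represented by its brightest probe on average. Of 43603 probes, 34285 matched 1 locus through RefSeq transcripts (TAIR10.1, used for names only); coordinates and sequences are not given. The fit was limma 3.58.1 in R 4.3.3, with 3 residual degrees of freedom, adjusted by Benjamini and Hochberg over all genes. It was also run on simulated data with independent noise, few changed probes and no slide effect. That run does not show how well the p-values hold for these arrays. The number of arrays limits the precision.

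The values of 3 tested members are not reported here, though the counts and medians include them. The members and lists were chosen with earlier results of these data known. All members could be named; values on every array were given for SOG1, ATR, members called with a change of at least 0.5, the largest called rise and fall of each role group, and partners of a complex, and for some others chosen after their values were seen. Of the other lists, up to 4 genes with the smallest p and those that changed at least 2-fold were to be named, and others that are named were chosen after their values were seen. Genes that RefSeq does not name were left out of the other lists. The alternatives were normexp background correction (offset 50, on the median spot signal, as the files hold no mean), quantile and median scaling, no filter or one of all 5 arrays, averaging the probes of a gene, trended robust eBayes, slide or replicate number as a block, the authors' table, and leaving out each array with probes chosen anew or held.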

Additional observations from a re-analysis of the deposited data

How the results depend on the processing

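Of the 30 called members, 29 kept their direction under all 20 alternatives, with MSH6 as the exception, and 10 lost their call under at least 1. The count of members called lower, 4 in the report, was 2 with no filter on dim probes, with the slide as a block and with the replicate block. It was 3 with normexp and 2 to 3 when 1 array was left out. It was 6 with quantile normalization, with median scaling and in the authors' value table. With averaged probes and with probes above background on all 5 arrays it was 5. The count of members called higher, 26 in the report, was 19 with the replicate block. The share of all genes called higher fell as well, from 30.7% in the report to 23.7% with that block. The members' median of 0.22 became 0.198 with normexp, 0.16 with quantile normalization, 0.16 with median scaling, 0.17 with the mean of a gene's probes, 0.195 with the slide as a block, 0.195 with the replicate block and 0.159 in the authors' value table; leaving out 1 array gave 0.17 to 0.25. Across the alternatives, 21.5% to 32.6% of all genes were called higher. The homologous recombination count, whose alternatives were chosen after seeing the data, was 12 to 15 higher under all alternatives. Its count of members called lower, 0 in the report, was 1 with normexp, quantile and median scaling, probes above background on all 5 arrays, averaged probes, trended robust eBayes and the authors' value table, and 0 to 1 with 1 array left out.

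Signs also turned for small changes, none called in that setting. The log2 change of RPA1A was -0.034 with normexp, -0.0091 with quantile normalization, -0.042 with median scaling, -0.0096 in the authors' value table and -0.0025 to 0.047 with 1 array left out. The log2 change of RAD51D was -0.0423 with quantile normalization, -0.043 with median scaling, -0.0417 in the authors' value table and -0.0495 to 0.065 with 1 array left out (-0.0043 without wild type array 2). The log2 change of ERCC1 was -0.051 with median scaling, -0.014 with averaged probes and -0.0136 to 0.021 with 1 array left out (-0.0050 without wild type array 1). The log2 change of MSH6 was -0.040 with averaged probes and the log2 change of LIG1 was -0.0195 with median scaling. The cause was not tested.

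Median scaling moved the median of all genes by -0.059, and 42.9% of all calls were then higher, against 53.8% with the 75th percentile; of the calls among members 76.9% were higher, against 86.7%. The replicate numbers of the labels are shared between genotypes. Deviations of same-numbered arrays correlated at 0.038 for number 1 and 0.0051 for number 2 across genes. Atino80-5 array 3 and wild type array 2, with unlike numbers, gave 0.031. Deviations of the 2 wild type arrays mirror each other, so this check could not decide on pairing, and none was assumed. With the replicate block, which leaves 1 residual degree of freedom, 19 members were higher and 2 lower, beside 23.7% of all genes called higher. RAD51B was the dimmest member.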
